A study of Mus musculus with 55 samples.

Results

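The comparison set the H3K4me1 peaks of PRM tumour cells recovered from the liver against those of PRMK tumours of the lung, 2 CUT&Tag libraries each, 4 of the 55 mouse samples of the series. PRM tumours carried guides against Trp53 and Rb1 and a Myc construct (MSCV-Myc-IRES-Luc2), and PRMK tumours carried the same 3 constructs plus a guide against Kmt2c. The guide vectors also expressed mCherry and a puromycin marker. All tumours grew in recipient mice after a lung injection, and material named as organoids was harvested from the lung or the liver. The labels give no age or strain, nor whether 2 replicates are 2 animals. Peaks of the 4 libraries that shared at least 1 bp were merged into 56222 union regions, the members described here. A region was liver-only when both liver PRM libraries and neither lung PRMK library held a peak, and PRMK-only in the opposite case. Organ and Kmt2c guide both differ between the groups and cannot be told apart from these 4 libraries, so 2 H3K4me1 libraries of lung PRM tumours were set beside them.

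H3K4me1, the single methylation of lysine 4 on histone H3, marks enhancers, the distal elements that raise transcription of genes in the cell types that use them. KMT2C and its relative KMT2D are the main enzymes that place this mark at enhancers, whereas H3K4me3 marks promoters. CUT&Tag cuts DNA next to an antibody bound to the mark, so a peak is a stretch where the antibody found it. Small cell lung cancer is a neuroendocrine tumour in which loss of both Trp53 and Rb1 is the rule, and the liver is a frequent site of its spread.

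The regions turn on named loci, and 4 promoters inside such regions are shown as examples, chosen after their values were seen. Most regions of either kind lie away from gene starts. Each line gives the 250 bases before a gene start from RefSeq on GRCm38 (mm10), 5′ to 3′ on the gene's strand. Capitals mark matches to the short motifs searched for, on either strand. The Hoxb4 stretch (chr11:96318017-96318266, plus strand) and the Cldn4 stretch (chr5:134946935-134947184, minus strand) lay inside PRMK-only regions. The Sox6 stretch (chr7:116031048-116031297, minus strand) and the Kcnip1 stretch (chr11:33843687-33843936, minus strand) lay inside liver-only regions.
Hoxb4: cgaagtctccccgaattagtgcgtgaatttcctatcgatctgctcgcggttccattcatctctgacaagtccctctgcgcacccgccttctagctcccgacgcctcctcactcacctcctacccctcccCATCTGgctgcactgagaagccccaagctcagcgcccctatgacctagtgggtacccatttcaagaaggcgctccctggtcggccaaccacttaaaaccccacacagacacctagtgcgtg
Cldn4: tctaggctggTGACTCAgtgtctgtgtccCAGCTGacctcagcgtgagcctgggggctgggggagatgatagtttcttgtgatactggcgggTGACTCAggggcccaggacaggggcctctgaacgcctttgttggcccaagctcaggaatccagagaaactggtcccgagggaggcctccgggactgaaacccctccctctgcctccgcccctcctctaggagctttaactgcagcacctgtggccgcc
Sox6: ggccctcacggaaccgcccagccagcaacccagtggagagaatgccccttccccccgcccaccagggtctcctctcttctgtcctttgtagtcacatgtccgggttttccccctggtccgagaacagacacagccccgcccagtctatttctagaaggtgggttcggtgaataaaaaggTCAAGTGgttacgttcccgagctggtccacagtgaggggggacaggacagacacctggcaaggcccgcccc
Kcnip1: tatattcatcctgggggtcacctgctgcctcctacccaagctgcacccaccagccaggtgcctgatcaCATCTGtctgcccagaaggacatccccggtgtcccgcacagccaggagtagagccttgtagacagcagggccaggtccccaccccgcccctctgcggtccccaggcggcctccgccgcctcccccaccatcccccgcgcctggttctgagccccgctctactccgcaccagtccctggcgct
The Hoxb4 stretch held 1 match to CAGATG and 14 CpG dinucleotides. The Cldn4 stretch held 2 matches to the AP-1 motif TGANTCA, 1 to CAGCTG and 7 CpG. The Sox6 stretch held 1 match to the NKX2 motif CACTTGA and 10 CpG, and the Kcnip1 stretch 1 match to CAGATG and 12 CpG. A match describes the letters and shows no binding.

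The 4 lists differed in shape before any comparison. The liver PRM lists held 29175 and 37783 peaks that covered 100.0 and 152 Mb. The lung PRMK lists held 38074 and 36910 peaks but covered 148 and 77.4 Mb, because the peaks of PRMK library 2 were narrow, with a median width of 1419 bp against 2473 to 2847 bp in the other 3. The 2 lung PRM lists held 30398 and 27745 peaks with median widths of 2974 and 2944 bp. Depth per library is not given with the peak lists, so a missing peak can also be a shallow library.

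Of the 56222 regions, 8096 (14.4%) were liver-only, 7151 (12.7%) were PRMK-only and 12623 (22.5%) were held by all 4 libraries. A further 8150 regions were held by PRMK library 1 alone and 7055 by liver library 2 alone, against 4037 by PRMK library 2 alone and 509 by liver library 1 alone. Regions held by a single library were thus more than the liver-only and PRMK-only regions together. No test was made, because the smallest p of an exact permutation test is 0.333 for 2 libraries against 2. Leaving out a library loosens the rule for its group, so a higher count is built in. Without liver library 1 the liver-only count was 15283, and without PRMK library 1 or 2 the PRMK-only count was 14441 or 15336.

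**Figure D1:**
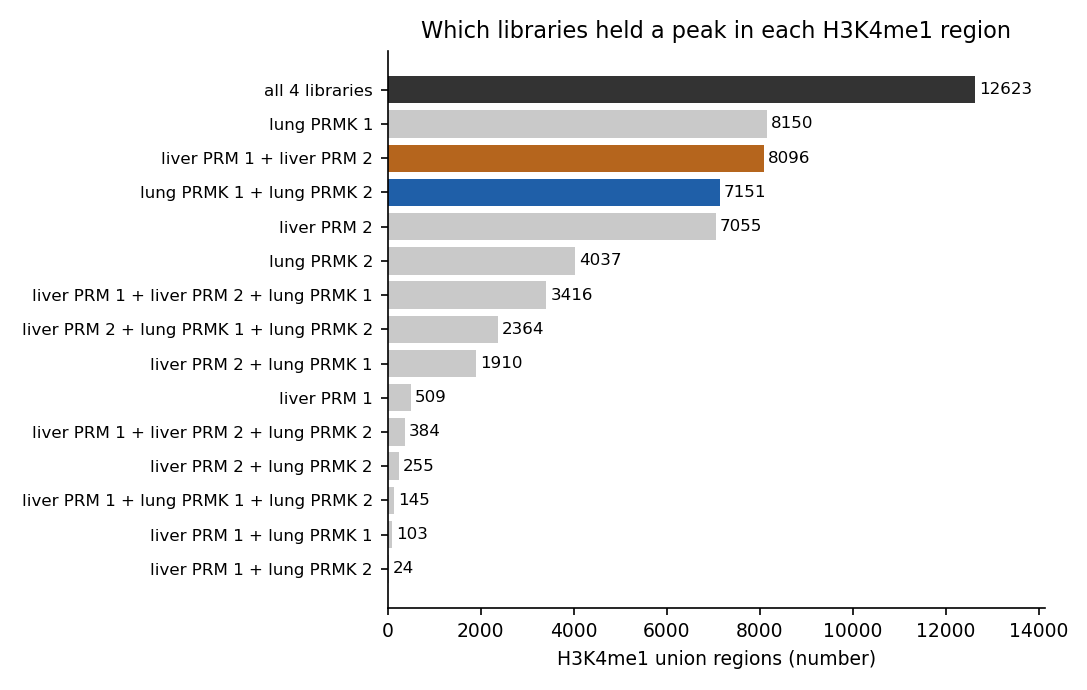
Number of H3K4me1 union regions (horizontal axis) by the libraries that held a peak in them, with the liver-only regions in brown, the PRMK-only regions in blue and those of all 4 libraries in black. The 8096 liver-only and 7151 PRMK-only regions stand beside 8150 and 7055 regions held by PRMK library 1 or liver library 2 alone.

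Liver-only and PRMK-only regions were of middle strength and size. Their median widths were 3014.5 and 2909 bp, against 6035 bp for regions of all 4 libraries and 2792 bp for all regions. The authors' total signal per peak was used only as a rank within its own list. By that rank the liver-only regions had median percentiles of 36.2 and 52.7 in the 2 liver lists. The PRMK-only regions had 54.9 and 43.9 in the PRMK lists, and regions of all 4 libraries lay between 68.3 and 77.6.

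Ranked by the lower percentile of their 2 libraries, the 10 highest liver-only regions included those in or nearest to Efna5, Accsl, Dlgap4, Sox6, Pbx3, Sprr2a1, Robo1 and Tub. Dlgap4 encodes a scaffold protein of synapses and Robo1 a receptor of SLIT proteins. These 10 had lower percentiles of 97.2 to 98.6 and held a peak in both lung PRM libraries each. The 10 highest PRMK-only regions lay in or nearest to the Hoxb genes, Ptpn14, Plpp1, Dpp6, Khdrbs3, Fhdc1, Meis1, Ttll10, Iqsec1 and Stat6. Stat6 is the factor activated by interleukin 4, and Plpp1 a lipid phosphatase. These 10 had lower percentiles of 97.5 to 99.5 and held a peak in 0 lung PRM libraries.

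The lung PRM libraries split the 2 kinds of region apart. Of the 8096 liver-only regions, 5914 (73.0%, exact binomial 95% interval 72.1 to 74.0) held a peak in both lung PRM libraries, 1151 in 1 of them and 1031 (12.7%) in neither. Of the 7151 PRMK-only regions, 138 (1.93%, interval 1.62 to 2.28) held a peak in both lung PRM libraries and 6678 (93.4%) in neither. Over all 56222 regions the share with both was 42.0%. The regions were picked for a difference between liver PRM and lung PRMK. At them lung PRM shared more peaks with liver PRM than with lung PRMK. What sets the groups apart there was not tested. The 1031 liver-only regions without a lung PRM peak were weaker, with median percentiles of 14.2 and 29.1 in the liver lists against 44.6 and 59.7 where both lung PRM libraries held a peak. Without liver library 1 the 73.0% became 46.5%, and without liver library 2 the 1.93% became 10.4%. The intervals cover counting error only and not the spread between tumours.

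**Figure D2:**
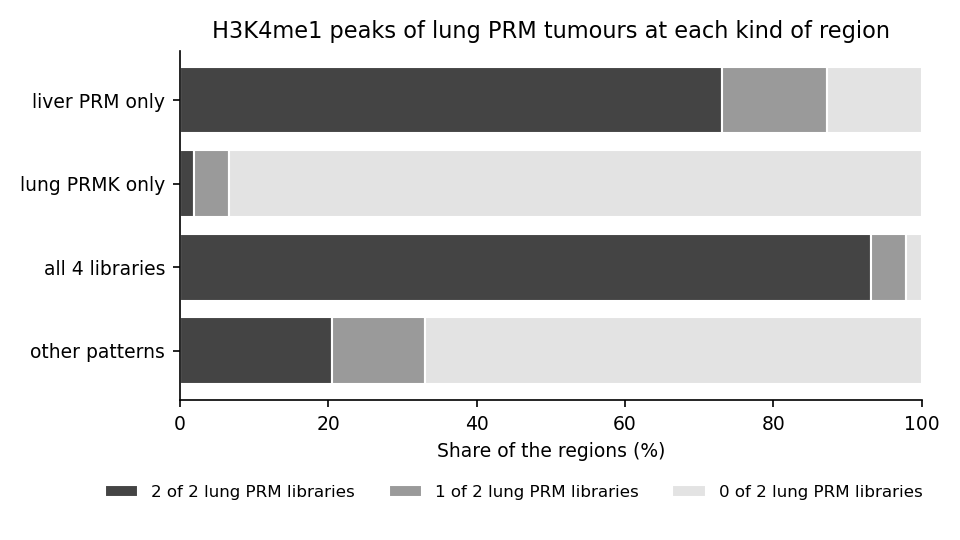
Share of the regions of each kind (horizontal axis, %) that held an H3K4me1 peak in 2, 1 or 0 of the lung PRM libraries. Of the liver-only regions 73.0% had a peak in both, and of the PRMK-only regions 93.4% had one in neither.

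Position along the genome also differed. Among regions off chromosome 18, for which gene starts were not used here, 356 of 7768 liver-only regions (4.58%) and 545 of 6952 PRMK-only regions (7.84%) lay within 1 kb of a coding gene's start. The share was 15.1% for regions of all 4 libraries and 10.2% for all. Between genes lay 44.9% of liver-only and 31.0% of PRMK-only regions, against 36.0% of all. By chromosome, liver-only regions made up 19.3% of the regions of chromosome 2, 18.9% of chromosome 19 and 22.9% of chromosome X, but 9.70% of chromosome 5 and 9.89% of chromosome 7. PRMK-only regions ran the other way there, with 8.88% on chromosome 2, 7.36% on X, 16.4% on 5 and 17.1% on 7. On chromosome Y, 28 of 77 regions were liver-only and 0 were PRMK-only.

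Each of 21887 coding genes was then scored by the length of peaks from 10 kb before to 10 kb after it. A gene was called when the lower library of a group was at least 2 times, and at least 1 kb, above the higher library of the other group. By this rule 1384 genes (6.32%) had more covered length in liver PRM and 1356 (6.2%) in lung PRMK. Of the 1384, 1057 had both lung PRM libraries on the liver side of the midpoint between the groups and 146 had both on the PRMK side. Of the 1356, 18 had both on the PRMK side and 1264 on the liver side. A left-out library loosens the rule, so these counts can only stay or rise, and all 1384 and 1356 genes stayed called. The liver count was 3039 without liver library 1 and 3535 without PRMK library 1. The PRMK count was 2625 without liver library 2 and 3613 without PRMK library 2.

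The Hoxb cluster held the strongest PRMK-only region. Hox genes encode the homeodomain factors that set position along the body axis. A PRMK-only region of 31206 bp at chr11:96320575-96351780, over parts of Hoxb4, Hoxb3 and Hoxb2, ranked above 99.5% of the peaks in both PRMK lists. In the whole cluster with 10 kb on each side (chr11:96184316-96378254), H3K4me1 covered 65.5 and 42.6 kb in the PRMK libraries and 0 kb in both liver PRM and both lung PRM libraries, with 8 PRMK-only regions. Around Hoxb3 the covered length was 46.5 and 32.8 kb in PRMK, and around Hoxb4 it was 19.2 and 12.4 kb, each against 0 in the 4 PRM libraries. Both genes were called, and the rule allows no overlap of liver PRM and PRMK at a called gene. In the Hoxa cluster the PRMK libraries covered 8.18 and 4.52 kb and the 4 PRM libraries 0 kb. The Hoxc cluster held 1.86 and 0.715 kb in PRMK and 0 in PRM.

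Of 39 Hox genes, 13 were called for PRMK and 2 for liver PRM, against 6.2% and 6.32% of all coding genes. Neighbouring Hox windows overlap and share peaks, so the 13 calls stand for 2 clusters. With gene bodies alone 5 were called for PRMK and 0 for liver PRM. The median covered length over the 39 genes was 0 kb in liver PRM and 0.932 kb in PRMK, against 0.782 and 0.951 kb over all coding genes. The 2 calls for liver PRM were Hoxd3 and Hoxd8. A single liver-only region of 3437 bp (chr2:74706010-74709446) lay in their windows, which had 1.96 and 3.44 kb in liver PRM, 3.17 and 2.27 kb in lung PRM and 0 in both PRMK libraries. The same region lay in the window of Hoxd9, which was not called because PRMK library 1 had 1.79 kb there. That PRMK peak also lay in the windows of Hoxd10 and Hoxd11, where liver PRM had 0 kb. Over the Hoxd cluster liver PRM had 1.96 and 3.44 kb and PRMK 1.79 and 0 kb.

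MEIS proteins are homeodomain partners of HOX factors, and Meis1 and Meis2 had more H3K4me1 in PRMK by the same rule. Around Meis1 the covered length was 122 and 88.9 kb in PRMK, against 14.4 and 21.8 kb in liver PRM and 19.4 and 18.7 kb in lung PRM. Around Meis2 it was 96.3 and 50.2 kb in PRMK, against 8.94 and 13.5 kb in liver PRM and 12.7 and 10.7 kb in lung PRM. The Meis2 window held 9 PRMK-only regions, the longest of 22274 bp at chr2:116039053-116061326, and 3 regions of all 4 libraries. Of the 11 genes of the Meis and Pbx list these 2 were called for PRMK and 0 for liver PRM, against 6.2% and 6.32% of all coding genes. Without PRMK library 1 there were 2 for liver PRM, and without PRMK library 2 there were 5 for PRMK. Pbx3, which encodes a further partner of HOX proteins, missed the rule, with 61.2 and 34.9 kb in PRMK against 108 and 122 kb in liver PRM.

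Of 20 genes of epithelial adhesion 7 were called for PRMK and 0 for liver PRM, against 6.2% and 6.32% of all coding genes. Without PRMK library 1 there were 2 for liver PRM. They were Epcam, Krt18, Krt19, Cldn4, Cldn7, Dsp and Ovol1. Ovol1, a repressor that keeps cells epithelial, had 19.7 and 12.7 kb in PRMK, 0 and 2.41 kb in liver PRM and 2.78 and 0 kb in lung PRM. Cldn4, a claudin of tight junctions, had 12.5 and 8.45 kb in PRMK, 2.12 and 2.54 kb in liver PRM and 1.52 and 2.56 kb in lung PRM. The Cldn4 promoter printed above lies in the PRMK-only region chr5:134944947-134948574.
Around Krt19, a keratin of simple epithelia, PRMK had 13.3 and 5.73 kb, liver PRM 0.940 and 0.917 kb and lung PRM 0.696 and 0 kb. Dsp, which encodes the desmosomal protein desmoplakin, had 10.8 and 6.72 kb in PRMK and 0 in the 4 PRM libraries. Cdh1, which encodes E-cadherin, was not called, with 27.6 and 7.39 kb in PRMK against 1.78 and 5.77 kb in liver PRM. The median of the list was 2.77 kb in liver PRM and 9.93 kb in PRMK. Cholangiocyte markers, which partly repeat these genes, gave 4 of 10 for PRMK and 0 for liver PRM, against 6.2% and 6.32% of all coding genes. With gene bodies alone there were 2 for PRMK and 0 for liver PRM. Onecut1 had 5.08 and 2.46 kb in PRMK and 0 in the 4 PRM libraries. The markers Spp1 and Sox9 had 0 kb in both PRMK libraries.

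The largest differences towards PRMK, beside Meis1 and Meis2, were at Prkce, Ptpn14, Skap1, Glis3, Slco3a1 and Tspear. Ptpn14, a phosphatase that restrains YAP, had 119 and 106 kb in PRMK, 2.12 and 12.6 kb in liver PRM and 3.93 and 5.42 kb in lung PRM. Its region chr1:189736581-189749079 ranked the second among PRMK-only regions. Prkce, which encodes protein kinase C epsilon, had 213 and 129 kb in PRMK against 15.7 and 34.4 kb in liver PRM and 24.9 and 26.0 kb in lung PRM. Skap1, an adaptor of T cell signalling that lies beside the Hoxb cluster, had 137 and 76.9 kb in PRMK and 0 and 6.59 kb in liver PRM. Glis3, a Krüppel-like zinc finger factor, had 108 and 49.9 kb in PRMK and 3.71 and 10.9 kb in liver PRM. These 4 genes were picked for the gap between liver PRM and PRMK, so that gap is no result. At each of them lung PRM, which the rule did not use, did not reach either PRMK library. Tead4, a DNA-binding partner of YAP, had 4.03 and 4.95 kb in PRMK and 0 in the 4 PRM libraries.

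The largest differences towards liver PRM were at Efna5, Tcf4, Kcnip1, Sox6, Asic2, Macrod2, Tspan9 and Ebf3. Efna5, an ephrin that guides axons, had 217 and 239 kb in liver PRM, 195 and 205 kb in lung PRM and 67.1 and 27.4 kb in PRMK. Its liver-only region chr17:62804686-62835487, 30802 bp long, ranked highest of its kind. Tcf4, an E-protein that pairs with neurogenic factors, had 257 and 282 kb in liver PRM, 265 and 259 kb in lung PRM and 110 and 66.0 kb in PRMK. Sox6, an SRY-box factor of neural and cartilage cells, had 152 and 223 kb in liver PRM, 197 and 185 kb in lung PRM and 57.1 and 27.1 kb in PRMK.
Ebf3, a helix-loop-helix factor of neurons, was nearly bare in PRMK, with 2.98 and 0.547 kb against 50.7 and 62.4 kb in liver PRM and 55.9 and 47.4 kb in lung PRM. Kcnip1, which encodes a potassium channel partner, had 176 and 198 kb in liver PRM, 187 kb in each lung PRM library and 78.3 and 42.9 kb in PRMK. At these 5 genes, picked for the gap between liver PRM and PRMK, the lung PRM values lay beside or within the liver PRM pair. Both PRMK libraries lay below both lung PRM libraries.

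**Figure D3:**
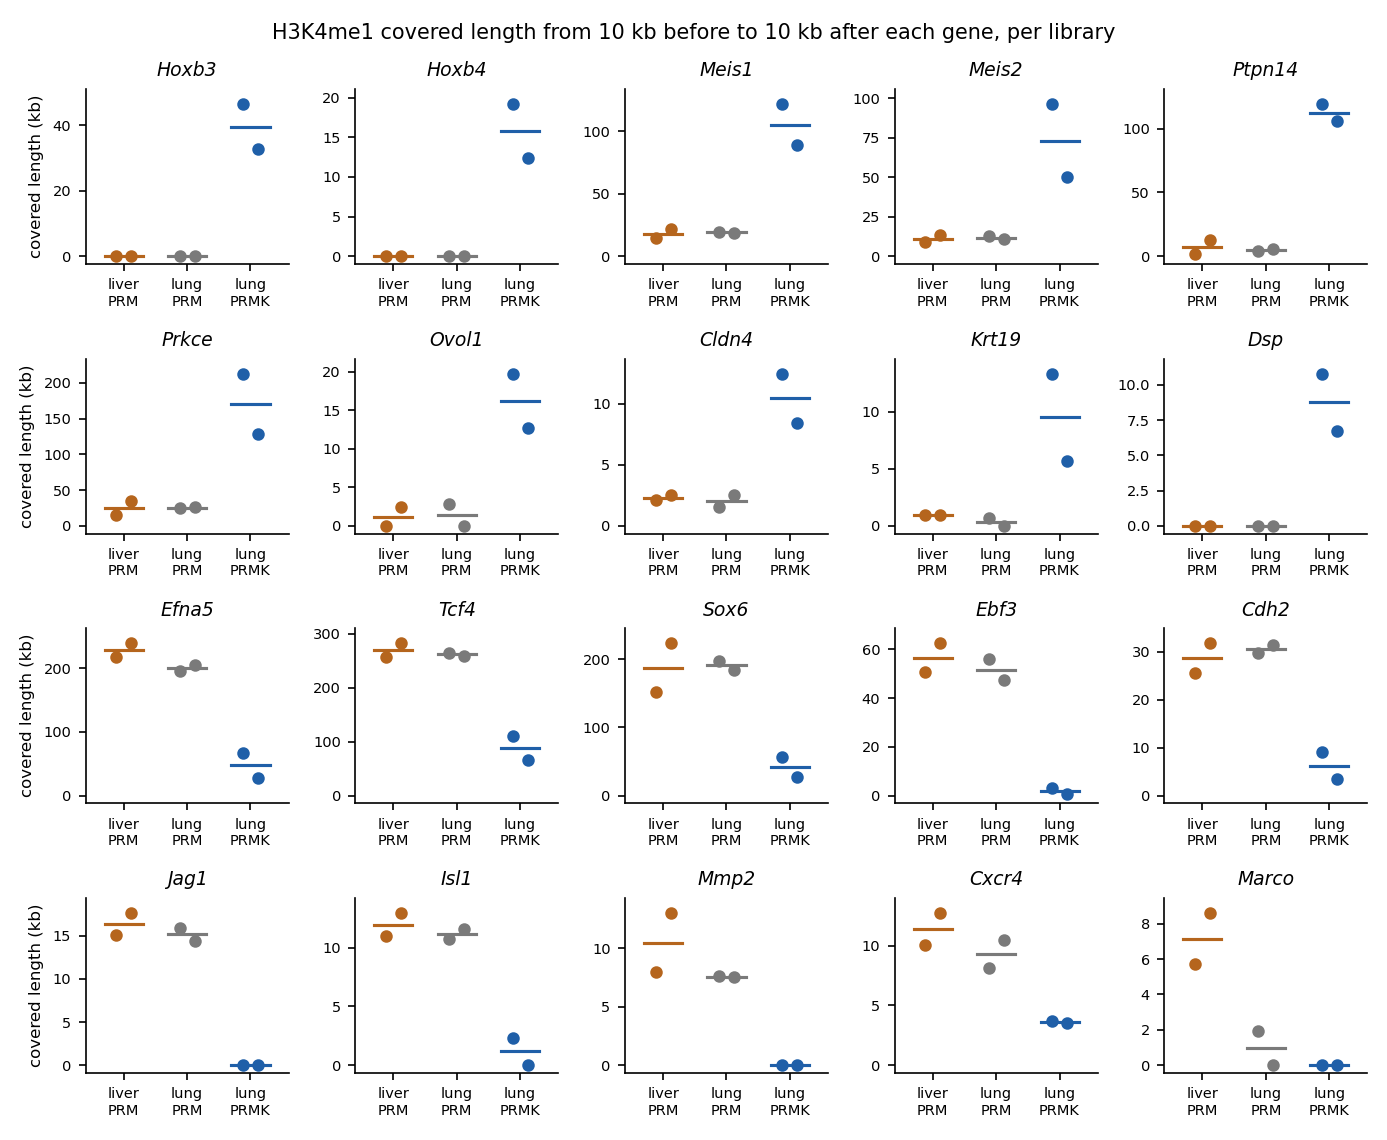
H3K4me1 covered length (vertical axis, kb, own scale per gene) in the window of 20 genes, with 1 point per library and a line at the mean of 2. The 20 genes were picked from those called between liver PRM and lung PRMK. Lung PRM (grey) sits with liver PRM (brown) and away from lung PRMK (blue) at 19 of them, from Hoxb3 to Cxcr4. At Marco lung PRM, with 1.93 and 0 kb, lies nearer to PRMK. Over all called genes both lung PRM libraries lay on the liver side of the midpoint at 1057 of 1384 called for liver PRM. The same held at 1264 of 1356 called for PRMK.

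Genes of mesenchymal transition and migration were called in both directions, 6 of 30 for liver PRM and 3 for PRMK, against 6.32% and 6.2% of all coding genes. Leaving out a library loosens the rule, so these counts can only stay or rise. They were 12 for liver PRM and 3 for PRMK without PRMK library 1, and 6 and 9 without PRMK library 2. Those for liver PRM were Cdh2, Itga5, Cxcr4, Mmp2, Gap43 and Slit2. Cdh2, which encodes N-cadherin, had 25.5 and 31.7 kb in liver PRM, 29.7 and 31.4 kb in lung PRM and 9.09 and 3.41 kb in PRMK. Cxcr4, the receptor of the chemokine CXCL12, had 10.1 and 12.7 kb in liver PRM, 8.10 and 10.5 kb in lung PRM and 3.74 and 3.52 kb in PRMK. Mmp2, a secreted collagenase, had 7.92 and 12.99 kb in liver PRM and 0 in both PRMK libraries. Slit2, an axon repellent, had 7.20 and 11.5 kb in liver PRM and 0 in both. Those for PRMK were Zeb2, Twist1 and Met, the receptor of hepatocyte growth factor, each at 0 in the 4 PRM libraries. Met had 4.93 and 1.84 kb in PRMK.

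The gene of the Notch ligand Jag1 had no H3K4me1 peak in PRMK, though it held peaks of other marks there, given below. Its window held 4 liver-only regions and no other, with 15.1 and 17.6 kb in liver PRM, 15.9 and 14.4 kb in lung PRM and 0 in both PRMK libraries. The longest, chr2:137106461-137116265, came within 1 kb of the Jag1 start. Of the 22 genes of the Notch and YAP list, Jag1 and Yap1 were called for liver PRM and Tead4 for PRMK, near the 6.32% and 6.2% of all coding genes. The PRMK count was 5 without liver library 2 and 6 without PRMK library 2. Notch1 differed little, with 30.1 and 36.0 kb in liver PRM and 39.0 and 30.9 kb in PRMK.

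Of 38 neuroendocrine genes 29 had a peak in both liver PRM libraries and 26 in both PRMK libraries, with list medians of 7.30 and 8.96 kb. By the rule 2 were called for liver PRM and 1 for PRMK, not above the 6.32% and 6.2% of all coding genes. Without PRMK library 1 there were 11 for liver PRM, and without PRMK library 2 there were 6 for PRMK. Chga, which encodes chromogranin A, had 21.8 and 26.0 kb in liver PRM and 27.0 and 20.4 kb in PRMK. Isl1, a homeodomain factor of neurons and endocrine cells, had 11.0 and 12.9 kb in liver PRM, 10.7 and 11.6 kb in lung PRM and 2.34 and 0 kb in PRMK. Stmn2, a neuronal microtubule regulator, had 1.01 and 1.97 kb in liver PRM and 0 in PRMK. Uchl1, a neuronal ubiquitin hydrolase, had 4.54 and 4.72 kb in PRMK and 0 and 1.96 kb in liver PRM. Of 19 alveolar and airway markers 0 were called in either direction, against 6.32% and 6.2% of all coding genes. Without liver library 1 there were 3 for liver PRM, and without liver library 2 or PRMK library 2 there were 5 or 3 for PRMK. Nkx2-1, the lung lineage factor, had 6.42 and 9.15 kb in liver PRM and 3.82 and 1.98 kb in PRMK.

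Markers of host cells carried some of the mark in every group. Of 30 hepatocyte markers 5 were called for liver PRM and 1 for PRMK, against 6.32% and 6.2% of all coding genes. Without liver library 1 there were 8 for liver PRM. With gene bodies alone there were 2 for liver PRM and 1 for PRMK, where 1107 and 1106 of all 21887 coding genes were called. The calls of Cyp7a1, Hamp and Tat were lost there. A peak in both libraries was found at 10 of the 30 in liver PRM, 7 in PRMK and 8 in lung PRM, and 14 had no peak in any library. The list median was 0 kb in both groups, and its summed length was 43.9 and 71.3 kb in liver PRM, 39.0 and 19.9 kb in PRMK and 52.6 and 47.3 kb in lung PRM. Alb, Apob, Fga and Fgg, which encode plasma proteins, were among those 14. Asgr1, the receptor of asialoglycoproteins, had 13.64 and 18.04 kb in liver PRM, 14.96 and 13.86 kb in lung PRM and 7.62 and 1.67 kb in PRMK. Hamp, which encodes the iron hormone hepcidin, had 4.22 and 5.56 kb in liver PRM, 1.77 and 2.58 kb in lung PRM and 0.356 and 0.342 kb in PRMK. Hnf4a, a factor of hepatocyte identity, had 3.80 and 2.43 kb in liver PRM and 4.59 and 3.08 kb in PRMK, and 0 in lung PRM. Cyp7a1, the first enzyme of bile acid synthesis, had 4.24 and 5.14 kb in liver PRM but also 4.04 and 4.91 kb in lung PRM, and 0 in PRMK. Tat and Cps1 had the same pattern, whereas Apoa1 had 1.36 and 2.62 kb in liver PRM and 0 in the other 4 libraries.
Over all coding genes 6.32% were called for liver PRM and 6.2% for PRMK, and these shares stand beside each marker list below. Among 18 macrophage and Kupffer cell markers, Marco and Mrc1 were called for liver PRM and Csf1r for PRMK. Without PRMK library 2 there were 2 for liver PRM and 4 for PRMK. The list summed to 36.3 and 53.4 kb in liver PRM, 65.4 and 32.2 kb in PRMK and 35.1 and 26.6 kb in lung PRM. A peak in both libraries was found at 8 of the 18 in liver PRM, 10 in PRMK and 6 in lung PRM. Marco, a scavenger receptor of macrophages, had 5.70 and 8.60 kb in liver PRM, 1.93 and 0 kb in lung PRM and 0 in PRMK. C1qa, a complement gene of macrophages, had 7.74 and 9.12 kb in liver PRM and 16.2 and 10.7 kb in PRMK. Spi1, the myeloid factor PU.1, had 2.03 and 4.09 kb in liver PRM and 5.82 and 1.36 kb in PRMK, and 0 in lung PRM. The Kupffer cell genes Clec4f, Vsig4, Cd5l and Adgre1 were at 0 in all 6 libraries, as was the pan-leukocyte gene Ptprc. Of 8 pan-leukocyte markers 3 had a peak in both liver PRM libraries, 5 in both PRMK libraries and 4 in both lung PRM libraries. Ikzf1 alone was called, for liver PRM, with 26.0 and 33.5 kb against 11.9 and 3.17 kb in PRMK, and lung PRM had 25.3 and 25.4 kb. Of 12 lymphoid markers, Cd79a was called for PRMK and 0 for liver PRM. Plvap and Kdr, of 15 endothelial markers, were called for liver PRM, and 9 of the 15 had a peak in both liver PRM libraries and 10 in both PRMK libraries. Pecam1, which encodes the adhesion molecule CD31, had 10.7 and 11.4 kb in liver PRM and 16.4 and 8.76 kb in PRMK, while the endothelial cadherin gene Cdh5 was at 0 in all 6. Pdgfrb and Reln, of 15 fibroblast and stellate markers, were called for liver PRM and Pdgfra for PRMK, and 6 of the 15 had a peak in both liver PRM libraries and 5 in both PRMK libraries. Counts in these short lists can only stay or rise when a library is left out, because that loosens the rule. The endothelial list gave 4 for liver PRM and 0 for PRMK without PRMK library 1, and 2 and 2 without PRMK library 2. The fibroblast and stellate list gave 5 and 1 without PRMK library 1. The pan-leukocyte list gave 1 and 2 without liver library 2. What share of either group's regions came from host cells was not tested.

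Patterns over the 6 libraries were counted at the 21887 coding genes by 2 rules of unlike strictness. The first rule asked for a peak in both libraries of 1 group and in none of the other 4. It was met by 96 genes for liver PRM and by 1057 for PRMK. The highest of the 96 were the neighbours Snapc5 and Rpl4, at 5.36 and 8.56 kb and at 4.69 and 5.43 kb, and Unc5d, a netrin receptor, at 4.80 and 9.22 kb. Grp, which encodes the neuroendocrine peptide gastrin-releasing peptide, was among them with 3.13 and 3.12 kb. The second rule asked for a peak in 4 libraries and in neither of the other 2. By it 579 genes had a peak in all 4 PRM libraries and in neither PRMK library. The counts share libraries, and those of the first and second rule cannot be set against each other. Also by the second rule, 29 genes had a peak in all 4 lung libraries and in neither liver library. Cdcp1, a transmembrane protein of epithelial cells, had 3.31 to 6.94 kb in these 4, and Tert, the catalytic part of telomerase, 2.62 to 4.95 kb. Among the 1057 genes with a peak in both PRMK libraries and in none of the 4 PRM libraries, Hoxb3 and Fhdc1 were among the highest.

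Of the 6 edited and driver genes, Meis2 alone was called. Kmt2c itself had 0 kb in all 6 libraries, so its H3K4me1 gives no check of the guide. Dnmt3a, the de novo DNA methyltransferase, had 62.5 and 78.8 kb in liver PRM, 68.0 and 61.5 kb in lung PRM and 77.0 and 52.5 kb in PRMK, and the groups overlapped. Its catalytically inactive partner Dnmt3l had 3.31 and 4.53 kb in liver PRM and 0 in PRMK. Mbd2, a reader of methylated DNA, had 44.1 and 24.3 kb in PRMK against 3.95 and 11.6 kb in liver PRM. Of 15 genes of the H3K4 methyltransferase complexes, Ash2l alone was called, with 1.18 and 1.19 kb in PRMK and 0 in PRM, and that call was lost with gene bodies alone and with lists of equal length. Of 11 DNA methylation genes 1 was called in each direction. Over all coding genes 6.32% were called for liver PRM and 6.2% for PRMK, the shares that stand beside the counts of these lists. Without PRMK library 1 the methyltransferase list gave 2 for liver PRM, and without PRMK library 2 it gave 2 for PRMK.

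KMT2C peaks were more frequent at PRMK-only regions in PRMK, and at liver-only regions in both PRM groups, though there not above the share of all regions. In the 2 liver PRM KMT2C libraries 37.9% and 51.2% of liver-only regions held a peak, against 25.5% and 37.4% of PRMK-only regions and 40.0% and 51.4% of all regions. In the 2 lung PRMK KMT2C libraries the shares were 35.1% and 28.2% of liver-only, 61.1% and 55.8% of PRMK-only and 55.8% and 50.9% of all regions. The lung PRMK tumours carried the Kmt2c guide, yet their KMT2C lists held the most peaks. They held 187682 and 134561, against 65201 and 113129 in liver PRM and 9949 and 16681 in lung PRM. The PRMK peaks were narrower, with median widths of 651 and 751 bp against 1356 and 1015 bp in liver PRM. By covered length PRMK, with 143 and 120 Mb, overlapped liver PRM, with 109 and 147 Mb, while lung PRM had 21.0 and 29.6 Mb. In lung PRM 7.93% and 14.1% of liver-only and 2.70% and 5.73% of PRMK-only regions held a KMT2C peak. The lung PRM shares of all regions were 11.0% and 16.9%. For KMT2C, H3K4me2 and H3K4me3 the labels add a Meis2 guide to PRMK replicate 1 and a scramble guide to PRMK replicate 2.
H3K4me2, a mark of both enhancers and promoters, was found in the lung PRMK libraries at 37.2% and 22.9% of PRMK-only and 11.2% and 8.20% of liver-only regions, against 36.5% and 27.3% of all. In lung PRM it was found at 15.9% and 14.3% of PRMK-only and 8.83% and 16.7% of liver-only regions. Both kinds lay below the lung PRM shares of all regions, 23.5% and 26.5%. H3K4me3 was below its share of all regions in both kinds and in each of 4 libraries, at most 12.8% where the lowest share over all regions was 14.7%. Open chromatin was found by ATAC in 36.4% and 7.44% of liver-only and 16.5% and 5.03% of PRMK-only regions in lung PRM, against 33.7% and 13.5% of all. Liver-only regions thus lay above the share of all regions in lung PRM library 1 and below it in library 2. In PRMK library 2 the shares were 13.8% of liver-only, 22.2% of PRMK-only and 24.7% of all regions. The other ATAC lists were not used, because PRMK library 1 held 593 peaks and the liver lists 345 and 141.

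**Figure D4:**
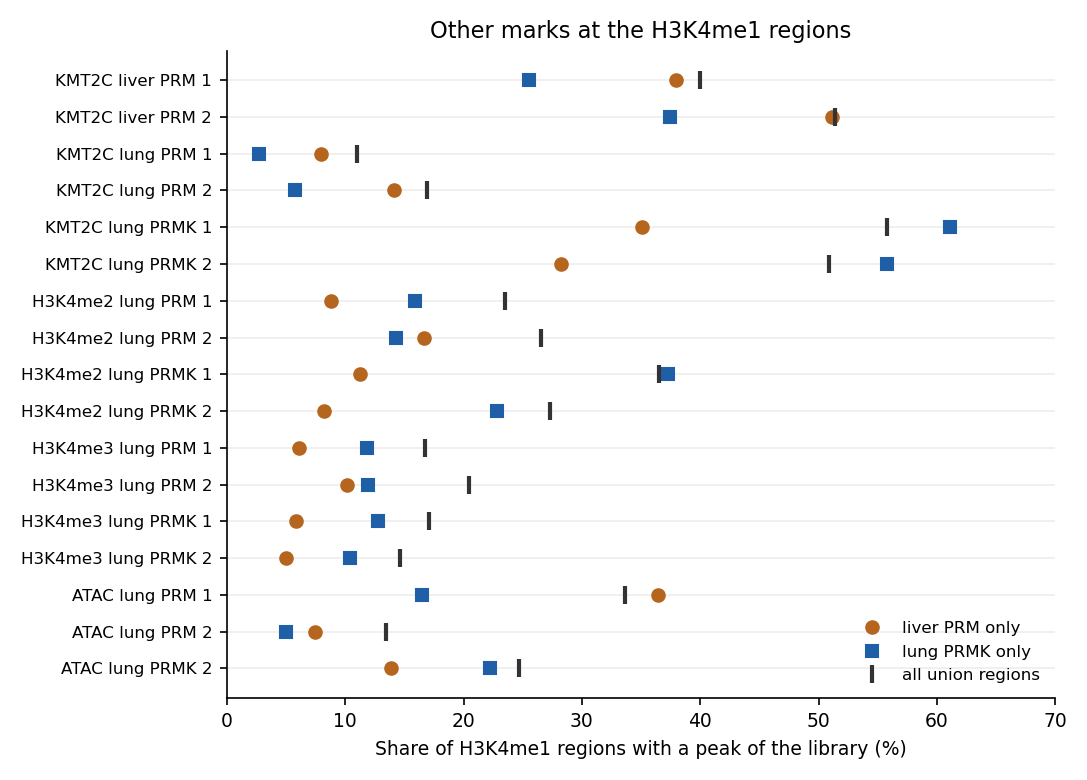
Share of H3K4me1 regions (horizontal axis, %) that held a peak of each other library, for liver-only regions (brown circles), PRMK-only regions (blue squares) and all union regions (black bars). KMT2C of liver PRM lies higher at liver-only than at PRMK-only regions, at 37.9% and 51.2%, close to its shares of all regions, and KMT2C of lung PRMK at PRMK-only regions, at 61.1% and 55.8%.

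Some of these loci differed in the other marks in the direction of their H3K4me1, and others did not. Around Hoxb3 KMT2C covered 34.7 and 38.6 kb in PRMK and 0 in both liver PRM and both lung PRM libraries. H3K4me2 covered 60.6 and 59.7 kb and H3K4me3 59.5 and 59.8 kb in PRMK, each with 0 in both lung PRM libraries. The whole Hoxb4 window of 23.4 kb was covered by H3K4me2 and by H3K4me3 in both PRMK libraries. Around Meis2 H3K4me2 covered 91.3 and 88.2 kb in PRMK. By label PRMK library 1 of these marks carried a Meis2 guide and library 2 a scramble guide. The lung PRM libraries disagreed, with 73.1 kb in library 1 and 15.96 kb in library 2. H3K4me3 there followed, with 61.5 and 51.5 kb in PRMK and 47.5 and 13.7 kb in lung PRM, so at Meis2 lung PRM library 1 of these marks lay nearer to PRMK than its H3K4me1 did. Around Ebf3 KMT2C covered 40.2 and 43.2 kb in liver PRM, 9.06 and 10.9 kb in PRMK and 1.52 and 2.30 kb in lung PRM. At Sox6 H3K4me2 went against H3K4me1, with 46.1 and 23.5 kb in PRMK and 11.2 and 18.3 kb in lung PRM. At Efna5 H3K4me2 overlapped, with 86.3 and 54.3 kb in PRMK and 75.02 and 95.48 kb in lung PRM. At Tspan9 KMT2C overlapped, with 72.7 and 88.7 kb in liver PRM and 78.5 and 61.1 kb in PRMK. At Jag1 H3K4me3 overlapped, with 5.59 and 4.87 kb in PRMK and 4.85 and 7.42 kb in lung PRM. H3K4me2 there covered 4.85 and 4.93 kb in PRMK and 8.04 and 12.3 kb in lung PRM. KMT2C at Jag1 covered 2.23 and 1.90 kb in PRMK, 1.73 and 1.07 kb in lung PRM and 6.96 and 7.23 kb in liver PRM.

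RNA of the liver tumours was not analysed here, so expression was read from lung PRMK and lung PRM tumours, 3 libraries each. Kmt2c RNA, the target of the guide, was 85.1, 84.4 and 105 CPM (counts scaled to library size) in PRMK and 113, 187 and 67.6 CPM in PRM. The groups overlapped, and a guide that edits DNA need not change the RNA level. No Kmt2c guide stands among the plasmids of these PRMK samples in the labels. A stranded kit is named for the PRM samples alone, so library preparation and genotype cannot be told apart. Total counts ran from 12013253 to 24123055. By the edgeR quasi-likelihood test 0 of 13914 genes (0%) passed an adjusted p of 0.05, with 2384 at an unadjusted p under 0.05, whereas DESeq2 called 1218 (8.76%). Without PRM library 4 edgeR called 796. Myc RNA was 273, 312 and 205 CPM in PRMK and 1140, 2306 and 2059 CPM in PRM, without overlap. Its log2 fold change, PRMK over PRM, was -2.80, with adjusted p 0.158 by edgeR and 1.57e-10 by DESeq2. Trp53 and Rb1 RNA overlapped between the groups. The cause of the Myc difference was not tested. Of the 923 tested genes with more H3K4me1 in liver PRM the median log2 fold change, PRMK over PRM, was -0.26, and 327 (35.4%) were above 0. Of the 958 with more in PRMK it was 0.22, and 591 (61.7%) were above 0. Over all 13349 genes matched it was -0.02, with 48.7% above 0. DESeq2 called 78 of the former lower and 21 higher in PRMK, and 83 of the latter higher and 21 lower, against 531 higher and 653 lower over all 13349.

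Meis2 RNA was 139, 215 and 272 CPM in PRMK and 0.889, 1.46 and 17.3 CPM in PRM, without overlap (log2 fold change 5.02, adjusted p 0.195 by edgeR and 0.000215 by DESeq2). Meis1 followed with 47.3, 32.1 and 39.8 CPM against 5.80, 6.89 and 15.7 CPM, again without overlap. Hoxb4 was 6.55, 0.835 and 47.7 CPM in PRMK and 0.261, 0.0561 and 0.445 CPM in PRM, so the groups did not overlap but PRMK spread widely. Prkce was 45.6, 30.4 and 57.8 CPM against 22.4, 18.6 and 19.6 CPM.
Jag1, bare of H3K4me1 in PRMK, had 10.3, 13.4 and 9.63 CPM in PRMK and 33.0, 61.7 and 20.4 CPM in PRM, without overlap (log2 fold change -1.79, adjusted p 0.204 by edgeR and 0.00823 by DESeq2). Tcf4 had 353, 524 and 159 CPM in PRMK and 1036, 1126 and 651 CPM in PRM.
Stmn2 ran the other way. It had more H3K4me1 in liver PRM and lung PRM, but its RNA was 37.0, 24.4 and 10.1 CPM in PRMK and 1.15, 0 and 2.76 CPM in PRM. That H3K4me1 call rested on 1 region, with a gap of 1.006 kb where the rule asked for 1 kb. Other marks at Stmn2 were higher in PRMK. H3K4me2 covered 6.64 and 4.70 kb in PRMK and 0 and 2.73 kb in lung PRM, and H3K4me3 4.13 and 3.46 kb against 0 and 1.36 kb. Kdr, with 1.40 and 5.76 kb of H3K4me1 in liver PRM, 3.55 and 0 kb in lung PRM and 0 in PRMK, had RNA of 1.97, 1.36 and 1.86 CPM in PRMK and 0.366, 0.168 and 0.0890 CPM in PRM. Epcam and Dsp overlapped between the groups because PRM library 6 was high. Epcam was 500, 191 and 857 CPM in PRMK and 4.65, 5.21 and 396 CPM in PRM, and Dsp 215, 14.8 and 298 CPM against 4.44, 7.40 and 152 CPM. Cxcr4 was 8.81, 10.0 and 6.18 CPM in PRMK and 98.1, 104 and 0.356 CPM in PRM, again split by library 6.

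**Figure D5:**
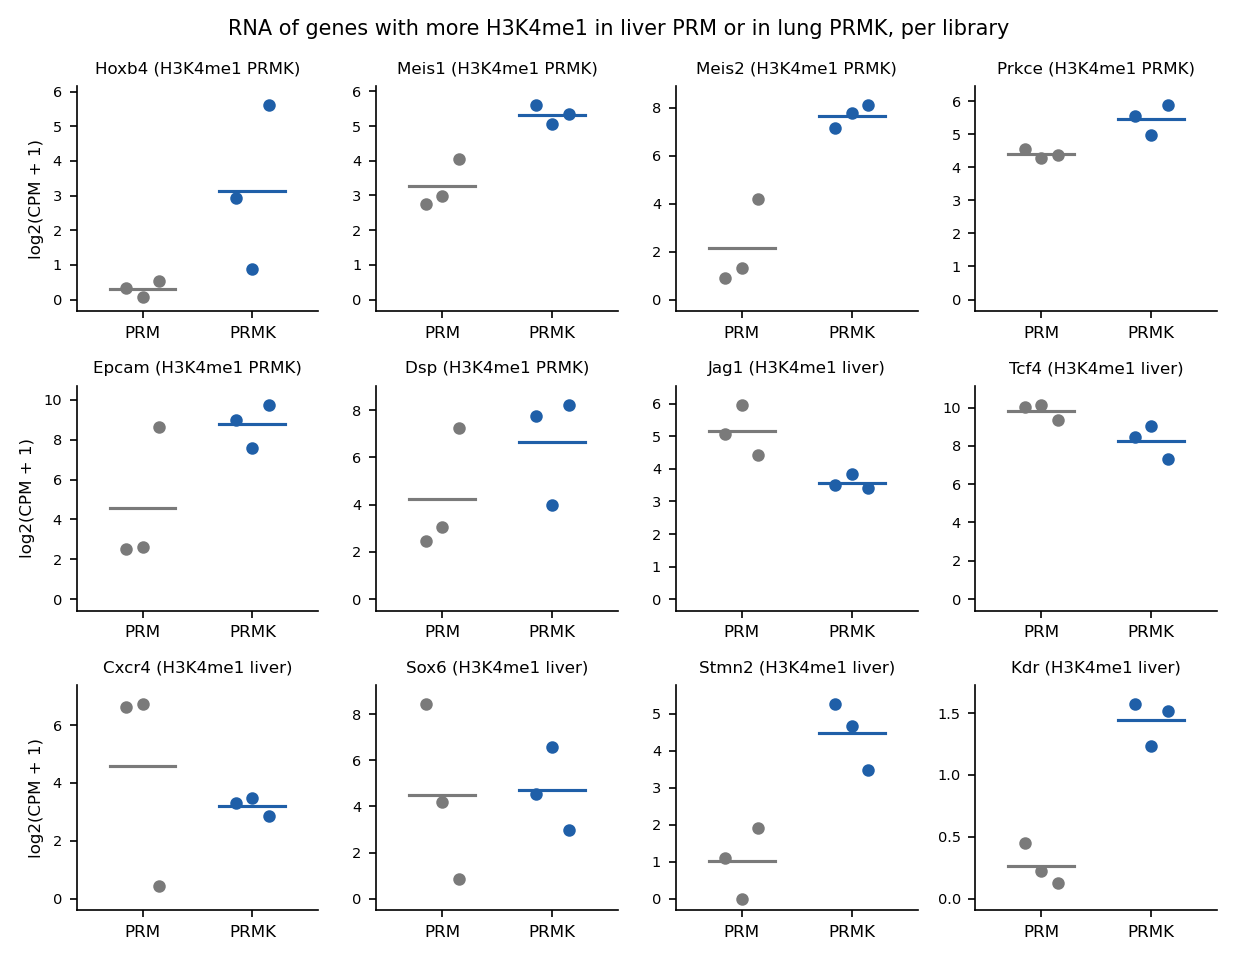
RNA per library on the scale log2(CPM + 1) (vertical axis, own scale per gene) in 3 PRM and 3 PRMK lung libraries, for 12 genes with more H3K4me1 in lung PRMK or in liver PRM as given above each panel. Lines are means. Meis1, Meis2 and Prkce are higher and Jag1 and Tcf4 lower in PRMK without overlap, while Stmn2 and Kdr, called for liver PRM by H3K4me1, are higher in PRMK.

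Promoters inside the 2 kinds of region were compared with all RefSeq promoters by sequence. Windows of 250 bases before to 50 bases after the start lay wholly inside liver-only regions for 226 promoters of 195 genes, and inside PRMK-only regions for 326 promoters of 293 genes, of 21263 promoters in all. The median number of CpG dinucleotides was 8 in the liver-only and 10 in the PRMK-only promoters, against 13 over all promoters and 12 in those inside regions of all 4 libraries. The NKX2 motif CACTTGA was found, on either strand, in 19 liver-only promoters (8.41%), 13 PRMK-only promoters (3.99%) and 2.95% of all. The 19 belonged to 19 genes, among them Sox6, whose promoter is printed above. The AP-1 motif TGANTCA was found in 10.2%, 9.20% and 6.99%. The GATA motif AGATAAG was found in 3.54% of liver-only, 1.23% of PRMK-only and 2.64% of all promoters. The MEIS motif TGACAG was found in 19.5%, 15.3% and 18.7%, so PRMK-only promoters did not hold it more often than promoters at large. No match says only that the letters are not in this window.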

How the data were processed

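H3K4me1 CUT&Tag peaks of 2 liver PRM, 2 lung PRMK and 2 lung PRM libraries were analysed, with peak lists of KMT2C, H3K4me2, H3K4me3 and ATAC and the RNA counts of 3 PRMK and 3 PRM lung libraries. CUT&Tag reads were aligned with Bowtie2 to mm10 and peaks called with SEACR, per the submitters' processing notes. Versions for CUT&Tag and the control used are not given in the sources used here. Each deposited SEACR peak carries the total and highest signal over it, made by the authors from coverage, with no depth stated. Lists were called per library. ATAC peaks were used by position, and their deposited score was not used. RNA reads were aligned with STAR 2.6.0a per the submitters' processing notes, and the deposited values are the authors' raw counts per gene.

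Peaks on chromosomes 1 to 19, X and Y were merged where they shared 1 bp, and chromosome M, with 1 peak per H3K4me1 library, was left out. Genes came from a RefSeq table on GRCm38.p6, and RNA genes were matched to it by gene ID. RNA was tested with edgeR 4.0.16 (filterByExpr, TMM, quasi-likelihood) and DESeq2 1.42.0 in R 4.3.3, with Benjamini-Hochberg adjustment. Overlaps, intervals and plots were made with scipy 1.17.1, pandas 2.3.3, matplotlib 3.10.9 and numpy 2.4.6 under Python 3.11.15. PRM RNA libraries bear the numbers 4 to 6 of the table's columns. P-values measure the spread between these samples, which may be technical.

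The region classes and the count tests were tested on simulated data. Genes were named by rule: the edited and driver genes, the Hox, Meis and Pbx lists, up to 4 called members of each of 17 lists, the 10 highest-ranked regions of each kind and the 8 largest differences in each direction. Other list members and genes of the library patterns were named after their values were seen. The comparison, lists and rules were chosen with earlier results of these data known. No genome was used here, so motifs were searched in RefSeq promoters and not at peak centres. Some genes that meet these rules are not reported here.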

Additional observations from a re-analysis of the deposited data

How the results depend on the processing

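No paired analysis was possible because the region counts come from no test, and the RNA groups share only the replicate number 3. Of 76 alternative values, 54 stayed near the reported ones and 22 moved. Near was judged by a fixed ratio for region and gene counts and by the binomial interval for shares. For RNA medians it was judged by the spread between libraries. Only the RNA medians could be labelled as reversed, and 0 of them were. With only the peaks above the median signal of each list there were 4521 liver-only, 4589 PRMK-only and 6730 shared regions. Leaving out each library gave 8480 to 15283 liver-only, 7308 to 15336 PRMK-only and 13243 to 16053 shared regions. The share of liver-only regions held by both lung PRM libraries was 80.4% with lists of equal length and 46.5% to 76.1% without a library, and that of PRMK-only regions 4.54% and 1.53% to 10.4%. Near a gene start lay 6.71% of liver-only and 10.9% of PRMK-only regions at 2.5 kb, and 5.55% of liver-only regions with lists of equal length. Leaving out each library gave 1430 to 3535 genes called for liver PRM and 1410 to 3613 for PRMK. The RNA calls were 1218 by DESeq2 and 0 to 796 without a library. Median RNA changes kept their sign, from -0.34 to -0.17 for genes of liver PRM and from 0.12 to 0.38 for genes of PRMK when a library was left out. The cause of these shifts was not tested, except that a left-out library loosens the rule for its group. Unknown depth limits every absence of a peak. The planned search in wider windows around peak centres was not run.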
